A study of Mustela putorius furo and Mus musculus with 4 samples.

Results

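The 10 genes described here are core members of the Notch pathway: the receptors Notch1, Notch2 and Notch3, the ligands Dll1, Dll3 and Jag1, the fringe glycosyltransferase Mfng, and the targets Hes1, Hes5 and Hey1. They were chosen by name as receptors, ligands and targets of the pathway, and all 10 were present among the 17170 genes of the mouse table and, in upper case, among the 22008 genes of the ferret table. The data are 10x Genomics single-cell RNA sequencing counts of embryonic cortex. Mouse cells were CD1 cortical cells labelled from the lateral ventricle with the fluorescent dye CellTrace Yellow (FlashTag) and sorted the day after, at E18, from 1 library of hGFAP-Cre;Smo F/F embryos (Smo-cKO) and 1 library of littermate controls, which the labels call wild type and the study's methods call Smo F/F without Cre. hGFAP-Cre is active in cortical radial glial (RG) cells and so reaches their progeny, and Smo is the membrane protein that transduces SHH signals. Ferret cells came from wild type cortex at E39 and formed 2 sets of barcodes. By the study's methods the ferret tissue was that of 1 embryo, so that a likeness between the sets is not one between animals.

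Notch receptors are cut after they bind a Delta or Jagged ligand on a neighbouring cell, and the released intracellular domain enters the nucleus and, with RBPJ, switches on Hes and Hey genes. The Hes and Hey proteins repress proneural genes such as Neurog2, which in turn activate Delta ligands, so that neighbouring cells of the ventricular zone tend to take opposite states. In the cortex this pathway is known for keeping RG cells undifferentiated while their daughters become pyramidal neuron intermediate progenitor cells (PyN-IPCs) and then pyramidal neurons (PyNs).

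Hes1, Hes5 and Hey1 end the pathway as repressors, and each carries a short motif near its C terminus. In the Hes proteins that motif recruits Groucho/TLE co-repressors. The coding bases that lead up to and include the motif are shown because these 3 genes are the targets followed in the results below. Notch activity itself was not measured. The capitals mark the codons of the motif, the sequences read 5′ to 3′ on the coding strand, and positions are on GRCm38 (mm10) with the GENCODE M21 annotation, in the coding part of the last exon of each gene.
Hes1-201, chr16:30067390-30067419, plus strand: ctcacttcggactccatgTGGAGACCGTGG
Hes5-201, chr4:154961643-154961672, plus strand: caacccgcctgcggcctcTGGCGGCCCTGG
Hey1-201, chr3:8664520-8664549, minus strand: gcaaaccttggcaagcccTATAGACCTTGG
The motif closed the reading frame of Hes5-201, with 0 codons between it and the stop codon, whereas 2 codons followed it in Hes1-201 and 7 in Hey1-201. In Hey1 the first of the motif's codons was TAT, in place of the TGG of both Hes genes.

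The remaining members lie on other chromosomes or far apart. Notch1 (chr2:26457903-26516663) and Jag1 (chr2:137081456-137116644) share chromosome 2, and Notch3 (chr17:32120820-32166852) and Dll1 (chr17:15367354-15376872) share chromosome 17. Notch2 lies at chr3:98013527-98150361, Dll3 at chr7:28293553-28302238 and Mfng at chr15:78755882-78773475. All 10 are annotated as protein coding.

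After filtering, 10498 control and 7209 Smo-cKO cells remained, with 51657121 and 42057782 UMIs and medians of 4033.5 and 4836 UMIs per cell, and the ferret sets held 10185 and 13052 cells with medians of 2556 and 3563. The mouse libraries shared 28 cell barcodes and the ferret sets 38. The columns of the mouse table name no genotype, and the barcode suffixes were tied to genotypes by the cell numbers that the study's methods give, so that every genotype direction below would reverse if that were wrong. Smo, which played no part in this, had 61 UMIs in control and 1 UMI in Smo-cKO RG-like cells (16.3 and 0.24 CPM, the UMIs of a gene per 1000000 UMIs of the class). The ferret sets could not be tied to the 2 labelled samples and stand apart in makeup: inhibitory-like cells were 127 of set 1 and 1102 of set 2.

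Cells were named from lists of marker genes that hold no member of the pathway described here. RG-like cells numbered 819 in control, 606 in Smo-cKO, 461 in ferret set 1 and 445 in ferret set 2, and cycling RG-like cells, with at least 3 of 10 cycling markers, 500, 226, 241 and 271. PyN-IPC-like cells numbered 1170, 579, 683 and 1209, and PyN-like cells 1555, 1541, 817 and 878. These classes are ranges of a score, not discrete types: 1789, 1475, 997 and 1023 cells lay within 0.25 of a cut, and 55.4%, 51.3%, 74.0% and 67.2% of cells took no class. Cells without a class held from 40.3% (Notch3) to 61.0% (Jag1) of a member's UMIs in control and from 44.4% (Notch3) to 62.1% (Dll1) in Smo-cKO. The glial progenitor-like cells held a median of 9 of 12 RG markers beside 4 (control) or 5 (Smo-cKO) of 10 glial progenitor markers. RG-like cells held a median of 11 (control) or 12 (Smo-cKO) of the 12 RG markers and 1 of 11 PyN-IPC markers.

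Each level is given as CPM summed over the cells of a class, with an exact Poisson 95% interval. UMIs were not divided by transcript length. A gene is compared between classes and libraries but not with another gene. All intervals, those of ratios and shares of cells included, reflect counting error alone. Each genotype is 1 library, so no test between genotypes is possible, and genotype cannot be told apart from embryo or preparation. A member is counted as higher or lower past 1.5-fold, with at least 50 UMIs in the 2 groups compared, and the share of all genes past the same fold is given beside it.

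First, receptors, Jag1 and targets were higher in RG-like than in PyN-IPC-like mouse cells, while Dll1, Dll3 and Mfng were lower, in both genotypes. All 10 members passed the UMI minimum, and in each of the mouse libraries 7 were higher in RG-like cells (Notch1, Notch2, Notch3, Jag1, Hes1, Hes5 and Hey1) and 3 were lower. Of all genes, 22.3% were higher and 15.5% lower in control, and 21.8% and 16.2% in Smo-cKO. The members' median log2 ratio was 2.35 in control and 2.37 in Smo-cKO, against 0.03 and 0.01 over all genes. The classes were cut from other genes of the same cells, so these ratios describe the classes and are not a test of them.

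Notch2, the receptor with the largest step between RG-like and PyN-IPC-like control cells, was high in RG-like cells of both libraries. In RG-like cells it reached 832 CPM (803 to 862) in control and 625 CPM (601 to 649) in Smo-cKO. In PyN-IPC-like cells it was at 52.9 and 49.4 CPM, and in PyN-like cells at 29.3 and 16.7 CPM. RG-like cells thus stood 15.7-fold (14 to 17.8) above PyN-IPC-like cells in control and 12.7-fold (10.8 to 15.0) in Smo-cKO. A Notch2 UMI was seen in 88.5% of control RG-like cells, and in 37.9% of control microglia-like cells, a type outside the neural lineage with a median of 7388 UMIs per cell against 4173. Microglia-like cells were at 61.3 CPM in control and 63.7 CPM in Smo-cKO. In the ferret sets they had 75.7 and 82.1 CPM of NOTCH2, against 88.3 and 149 CPM in RG-like cells.

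Notch1 was distributed more evenly along the lineage. Its level was 203 CPM (189 to 218) in control and 188 CPM (175 to 202) in Smo-cKO RG-like cells, 86.0 and 80.4 CPM in PyN-IPC-like cells, and 18.3 and 10.9 CPM in PyN-like cells. The step from RG-like to PyN-IPC-like cells was 2.36-fold (2.10 to 2.65) in control, and that from PyN-IPC-like to PyN-like cells was 4.70-fold (3.80 to 5.86). For Notch2 the second step was the smaller, at 1.80-fold (1.49 to 2.19) in control. In Smo-cKO the second step was 7.38-fold (5.67 to 9.71) for Notch1 and 2.95-fold (2.30 to 3.80) for Notch2, so the order of the steps was the same in both libraries. The PyN-like levels rest on 106 and 73 Notch1 UMIs and 170 and 112 Notch2 UMIs. Past 1.5-fold, 8 of 9 members tested were higher and 1 lower in PyN-IPC-like than in PyN-like control cells (13.5% and 17.9% of all genes), and 7 of 8 higher and 0 lower in Smo-cKO (12.6% and 20.1%).

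Notch3, the receptor known for its role in vascular smooth muscle and pericytes, was low in neural cells. In RG-like cells it was at 34.2 CPM (28.6 to 40.7) in control and 45.6 CPM (39.3 to 52.5) in Smo-cKO, and at 4.38 and 4.97 CPM in PyN-IPC-like cells. The 31 control and 28 Smo-cKO mural-like cells, which were too few for the class comparisons and are given after their values were seen, had 195 CPM (135 to 272) and 196 CPM (138 to 271). These were the highest Notch3 levels of any named class in the mouse libraries, and the intervals did not overlap those of RG-like cells.

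The Delta ligands were lower in RG-like than in PyN-IPC-like cells, the opposite of the targets. Dll1 was at 6.69 CPM (25 UMIs) in control and 5.99 CPM (25 UMIs) in Smo-cKO RG-like cells, and at 23.9 CPM (20.0 to 28.3) and 35.7 CPM (29.5 to 42.9) in PyN-IPC-like cells. Glial progenitor-like cells held 39.7 CPM (29.8 to 51.8) in control and 28.1 CPM (14.5 to 49.1) in Smo-cKO, so that the leading class differed between the libraries, and in Smo-cKO the intervals of the 2 leading classes overlapped. Even in its leading classes Dll1 was sparse: 9.91% of control PyN-IPC-like cells and 18.8% of control glial progenitor-like cells had a UMI, beside 0 of 87 control microglia-like cells (upper limit of the share, 3.45%).

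Dll3, a divergent Delta protein that does not activate receptors on neighbouring cells, showed a sharper contrast. It had 9 UMIs in control and 6 in Smo-cKO RG-like cells (2.41 and 1.44 CPM), and 294 and 194 UMIs in PyN-IPC-like cells (53.6 and 60.2 CPM). The RG-like level was 0.0449 (0.0203 to 0.0865) of the PyN-IPC-like level in control and 0.0239 (0.00866 to 0.0529) in Smo-cKO. PyN-like cells kept 18.3 and 14.2 CPM, above RG-like cells in both libraries.

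Jag1 was the 1 ligand on the side of the RG-like cells. It was at 27.8 CPM (22.7 to 33.7) in control and 28.8 CPM (23.9 to 34.4) in Smo-cKO RG-like cells, against 8.39 and 9.31 CPM in PyN-IPC-like cells. In control the highest of the classes compared was glial progenitor-like, at 52.2 CPM (40.8 to 65.9). The few vessel cells, given after their values were seen, also held Jag1. Endothelial-like cells had 14 UMIs in 10 of 38 control and 21 in 8 of 16 Smo-cKO cells. Mural-like cells had 13 in 8 of 31 and 8 in 7 of 28. A Jag1 UMI was seen in 88 of 819 and 87 of 606 RG-like cells, which had fewer UMIs per cell than endothelial-like cells.

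Mfng, which adds sugars to Notch receptors and so tunes their response to ligands, had its highest level in PyN-IPC-like cells among the classes compared, in both libraries. It was at 182 CPM (171 to 194) in control and 179 CPM (164 to 194) in Smo-cKO PyN-IPC-like cells, against 11.0 and 3.36 CPM in RG-like cells. PyN-like cells had 65.8 and 45.7 CPM. A Mfng UMI was present in 55.0% of control and 55.4% of Smo-cKO PyN-IPC-like cells, and in 18.4% and 10.9% of microglia-like cells. Lfng, another fringe enzyme, had the reverse order, with 209 UMIs in control RG-like and 7 in PyN-IPC-like cells (55.9 and 1.28 CPM), and 171 and 4 UMIs in Smo-cKO (41.0 and 1.24 CPM). Lfng was singled out after its values were seen.

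Of the 3 targets, Hes1 had the largest ratios between RG-like and PyN-IPC-like cells. In RG-like cells it was at 309 CPM (291 to 327) in control and 279 CPM (263 to 295) in Smo-cKO, and in PyN-IPC-like cells at 11.1 CPM (8.51 to 14.3) and 2.48 CPM (1.07 to 4.89). The ratios were 27.7-fold (21.4 to 36.5) and 112-fold (56.8 to 261), the second of them from 8 UMIs in PyN-IPC-like cells. Hes1 was also high in vessels: the 38 control and 16 Smo-cKO endothelial-like cells, too few for the class comparisons and given after their values were seen, had 464 CPM (390 to 547) and 545 CPM (442 to 664), above the RG-like cells of their library.

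Hes5 was at 307 CPM (289 to 325) in control and 342 CPM (325 to 361) in Smo-cKO RG-like cells, and at 27.5 and 18.0 CPM in PyN-IPC-like cells. Endothelial-like cells had 2 and 1 Hes5 UMIs, and microglia-like cells 1 and 2. A Hes5 UMI was seen in 51.5% of control and 65.5% of Smo-cKO RG-like cells, and in 1.15% and 1.45% of microglia-like cells. Hes5 was thus near 0 in both of these classes, in which Hes1 was detected. It was not so in the few mural-like cells, given after their values were seen, which had 37 Hes5 UMIs in 8 of 31 control cells and 33 in 10 of 28 Smo-cKO cells, with up to 20 and 10 UMIs in a cell. Those cells held a median of 4 and 5 RG markers.

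Hey1 was at 42.8 CPM (36.4 to 49.98) in control and 66.9 CPM (59.3 to 75.2) in Smo-cKO RG-like cells, and at 4.56 and 7.76 CPM in PyN-IPC-like cells. PyN-like cells had 9.15 and 11.0 CPM. In control the PyN-IPC-like level was 0.498 (0.297 to 0.816) of the PyN-like level, and in Smo-cKO 0.703 (0.428 to 1.12), an interval that includes 1. No Hey1 UMI was seen in the 87 control and 138 Smo-cKO microglia-like cells, for upper limits of 3.45% and 2.17%.

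**Figure D1:**
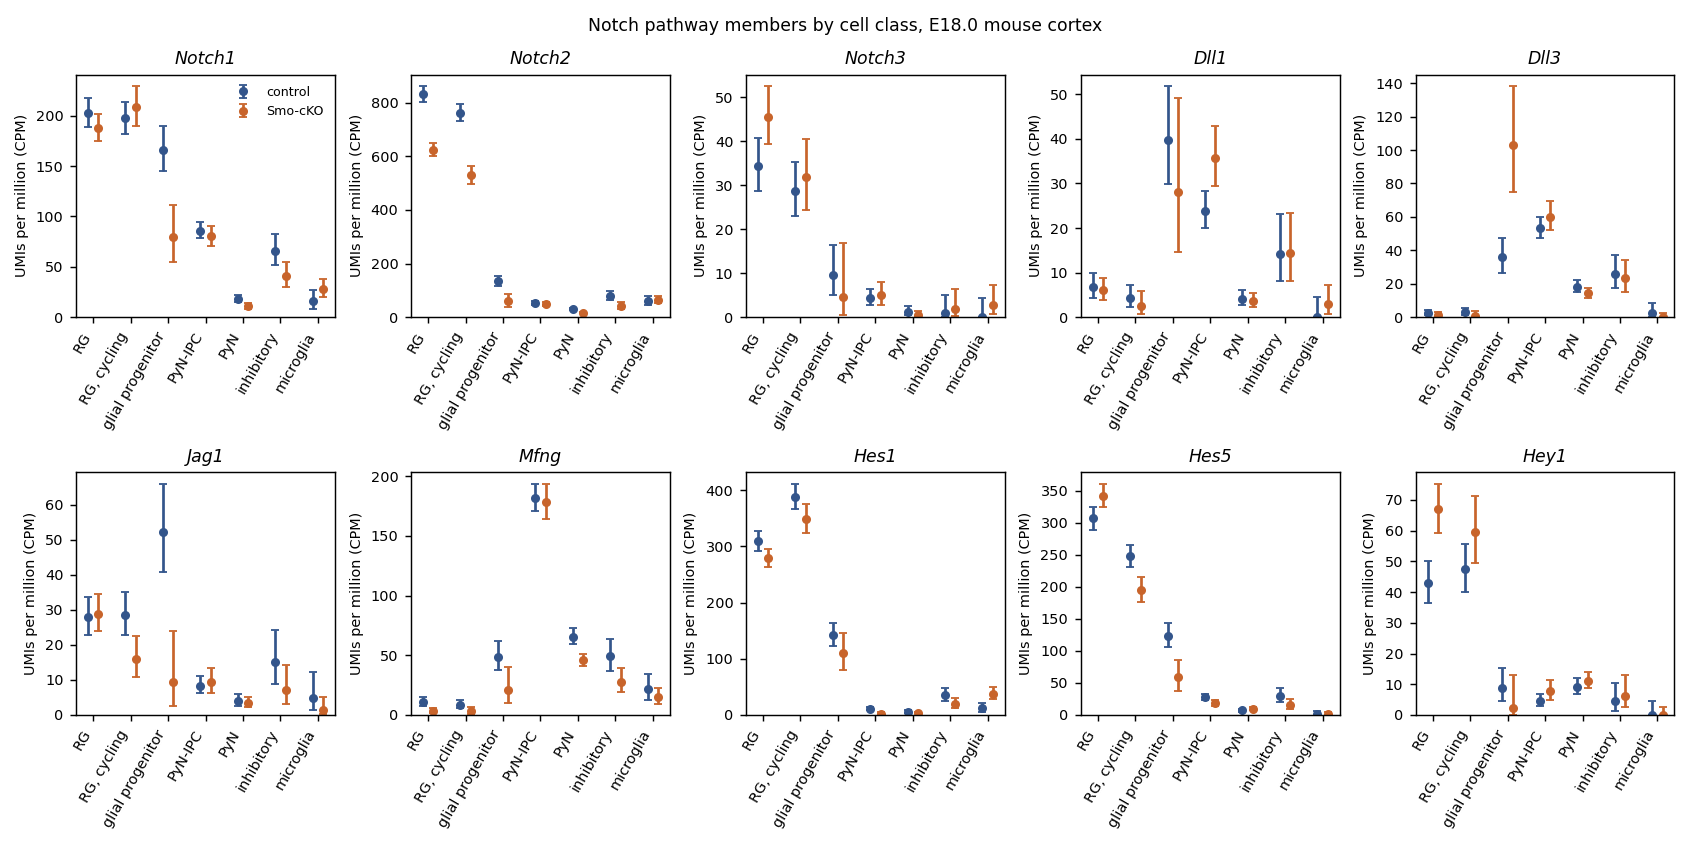
Level of each member (CPM, linear axis from 0) in 7 cell classes of E18 mouse cortex, for the control (blue) and Smo-cKO (orange) libraries. Points are sums over cells and bars exact Poisson 95% intervals of counting error. Notch2, Hes1 and Hes5 peak in the RG-like classes, and Mfng in PyN-IPC-like cells (182 and 179 CPM).

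Cycling and other RG-like cells differed in opposite ways for the Hes genes. Hes1 was 1.26-fold (1.16 to 1.37) higher in cycling than in other RG-like cells in control and 1.25-fold (1.14 to 1.38) in Smo-cKO, with 388 and 349 CPM in the cycling cells. Hes5 went the other way, at 0.807 (0.736 to 0.886) and 0.570 (0.508 to 0.638) of the level in other RG-like cells. Past 1.5-fold, 0 of 8 members tested were higher and 0 lower in cycling control cells (9.29% and 9.48% of all genes). In Smo-cKO 0 of 7 were higher and 2, Hes5 and Jag1, lower (9.32% and 14.4%). Jag1 was at 28.4 CPM in control and 15.9 CPM in Smo-cKO cycling RG-like cells. In ferret set 2 HES5 was the 1 member past the limit in cycling cells, lower at 0.659 (0.566 to 0.766), of 7 tested (9.47% of all genes were lower). In set 1 it was at 0.990 (0.783 to 1.25), and 0 of 5 members were past the limit (21.9% of all genes, either way). The interval of Hes5 thus lay below 1 in 3 of 4 libraries. The intervals of HES1 include 1 in both ferret sets, around ratios of 1.21 and 1.00.

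In ferret cortex, NOTCH2, NOTCH3, HES1, HES5 and HEY1 were higher in RG-like than in PyN-IPC-like cells in both sets, and DLL3 and MFNG lower. Past 1.5-fold, 4 of 8 members tested were higher and 2 lower in set 1, where 13.5% and 9.06% of all genes were, and 5 of 10 were higher and 4 lower in set 2, where 18.4% and 12% of all genes were. HEY1, at 18.1 against 4.72 CPM, and JAG1 had fewer than 50 UMIs in set 1 and were not counted there. HES1 gave the largest ratio in both sets: 103 and 128 CPM in RG-like cells against 1.42 and 1.53 CPM in PyN-IPC-like cells, with 3 and 8 UMIs in the latter. The ratios were 72.9 (24.4 to 358) and 83.8 (41.8 to 197), the first of them from a count of 3 UMIs. HES5 was at 137 and 284 CPM in RG-like and at 26.9 and 28.2 CPM in PyN-IPC-like cells. MFNG was at 4.73 and 6.60 CPM in RG-like and at 25.02 and 31.0 CPM in PyN-IPC-like cells. The sets also differed from each other. In RG-like cells, 3 of 7 members tested were higher and 0 lower in set 2 than in set 1, against 22% and 4.23% of all genes. In PyN-IPC-like cells 0 of 7 were past the limit, against 17.6% higher and 3.11% lower of all genes.

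NOTCH1 and JAG1 did not keep the mouse order. NOTCH1 was at 77.3 CPM (62.7 to 94.2) and 107 CPM (92.3 to 124) in ferret RG-like cells and at 87.8 and 90.6 CPM in PyN-IPC-like cells. The intervals of the ratios, 0.880 (0.682 to 1.13) and 1.19 (0.993 to 1.41), include 1, whereas the mouse ratios were 2.36 and 2.34 (2.03 to 2.70). NOTCH1 was at 2.55 and 3.32 CPM in ferret PyN-like cells, 34.5-fold (15.5 to 95.1) and 27.3-fold (15.5 to 53.2) below PyN-IPC-like cells. JAG1 had 6 and 8 UMIs in ferret RG-like cells (4.73 and 4.80 CPM) and 33 and 60 UMIs in PyN-IPC-like cells (15.6 and 11.5 CPM). The JAG1 ratios of 0.304 (0.104 to 0.734) and 0.418 (0.173 to 0.878) were below 1 and the mouse ratios of 3.32 (2.32 to 4.80) and 3.09 (2.06 to 4.78) above it. The species also differ in stage, in the gene models used for counting and in sorting, and these cannot be told apart. The study's methods describe sorting for labelled mouse cells only. In ferret, the 10 genes highest in PyN-IPC-like cells over the rest included the cycling markers UBE2C and TOP2A, and in mouse neither. The part of this in the ratios was not tested. DLL1 was lower in RG-like cells in set 2, at 0.584 (0.353 to 0.927), and in set 1 its interval included 1 (0.835, 0.470 to 1.44).

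**Figure D2:**
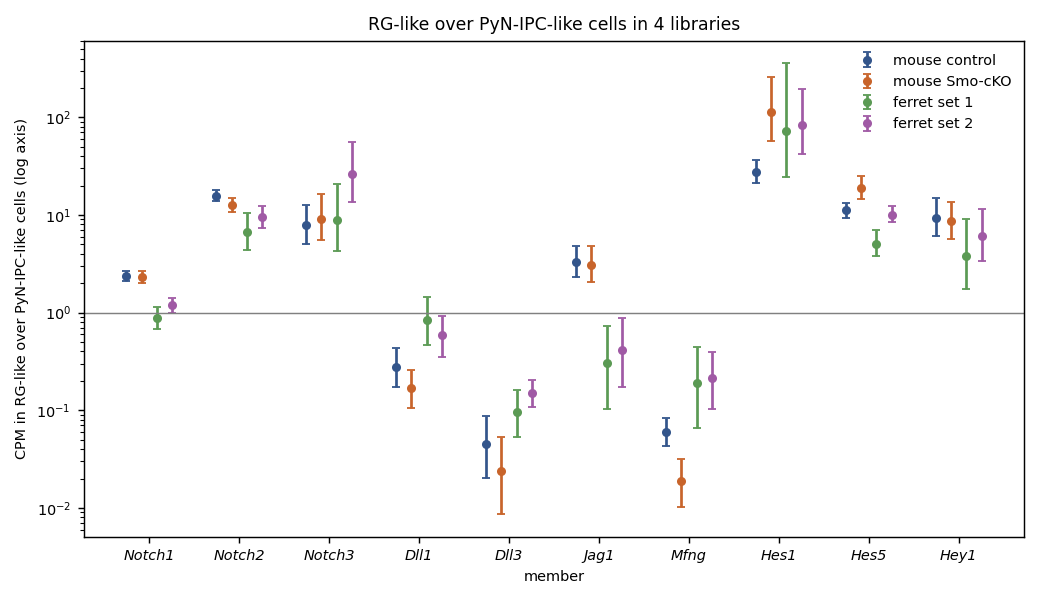
Ratio of CPM in RG-like over PyN-IPC-like cells (log axis) for each member in the 2 mouse libraries and the 2 ferret sets, with exact conditional binomial 95% intervals, members under 50 UMIs included. Hes1, Hes5, Notch2, Notch3 and Hey1 lie above 1 and Dll3 and Mfng below 1 in all 4, while Notch1 and Jag1 sit lower in ferret than in mouse.

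The vessels of the ferret tables held enough cells for levels of their own. Endothelial-like cells (71 and 62) had 149 and 125 CPM of NOTCH1, 119 and 122 CPM of JAG1, 96.8 and 106 CPM of HES1, 72.0 and 70.4 CPM of HEY1, and 1 HES5 UMI in each set. MFNG rested on few UMIs there, with 13 and 18 in endothelial-like cells (32.3 and 57.6 CPM), with intervals that overlap those of PyN-IPC-like cells. Against RG-like cells of the same set, HEY1, JAG1 and MFNG were higher without overlap of intervals in both sets. For MFNG the RG-like levels rest on 6 and 11 UMIs. A further 40 and 41 cells passed the mural score but held a median of 7 of 11 endothelial markers beside 5 and 6 of 9 mural markers, and so are called cells with mural and endothelial markers. They had the highest NOTCH3 levels in the table, 193 CPM (143 to 255) and 217 CPM (168 to 276), against 37.8 and 49.8 CPM in RG-like cells. Their MFNG level was 63.1 CPM (36.1 to 102) and 35.7 CPM (17.8 to 63.8), from 16 and 11 UMIs, and in set 1 its interval lay above that of PyN-IPC-like cells.

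Glial progenitor-like cells of both ferret sets (94 and 172) had higher DLL1 and DLL3 levels than RG-like cells, beside HES5. JAG1 was at 2 and 4 UMIs there. Past 1.5-fold over RG-like cells, 0 of 5 members tested were higher and 2 lower in set 1 (9.92% and 11.3% of all genes), where DLL1 and DLL3 had too few UMIs to count, and 3 of 8 higher and 3 lower in set 2 (11.2% and 13.2%). DLL1 was at 66.3 CPM (42.5 to 98.6) and 55.9 CPM (40.8 to 74.8), against 16.6 and 13.2 CPM in RG-like cells. DLL3 was at 82.8 and 101 CPM, against 11.8 and 25.2 CPM. HES5 remained at 157 CPM (119 to 204) and 246 CPM (213 to 283), with ratios over RG-like cells of 1.15 (0.835 to 1.56) and 0.864 (0.728 to 1.02). HES1 was at 44.2 and 48.4 CPM, 0.428 (0.238 to 0.721) and 0.377 (0.261 to 0.532) of the RG-like level. In mouse control, by contrast, both Hes1 and Hes5 were lower in glial progenitor-like than in RG-like cells, at 0.463 (0.395 to 0.539) and 0.403 (0.341 to 0.474). There, 4 of 10 members were higher (Dll1, Dll3, Jag1 and Mfng) and 5 lower (13.8% and 24.8% of all genes, 38.6% either way), and in Smo-cKO 1 of 8, Dll3, was higher and 7 lower (14% and 29.3%, 43.3% either way).

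**Figure D3:**
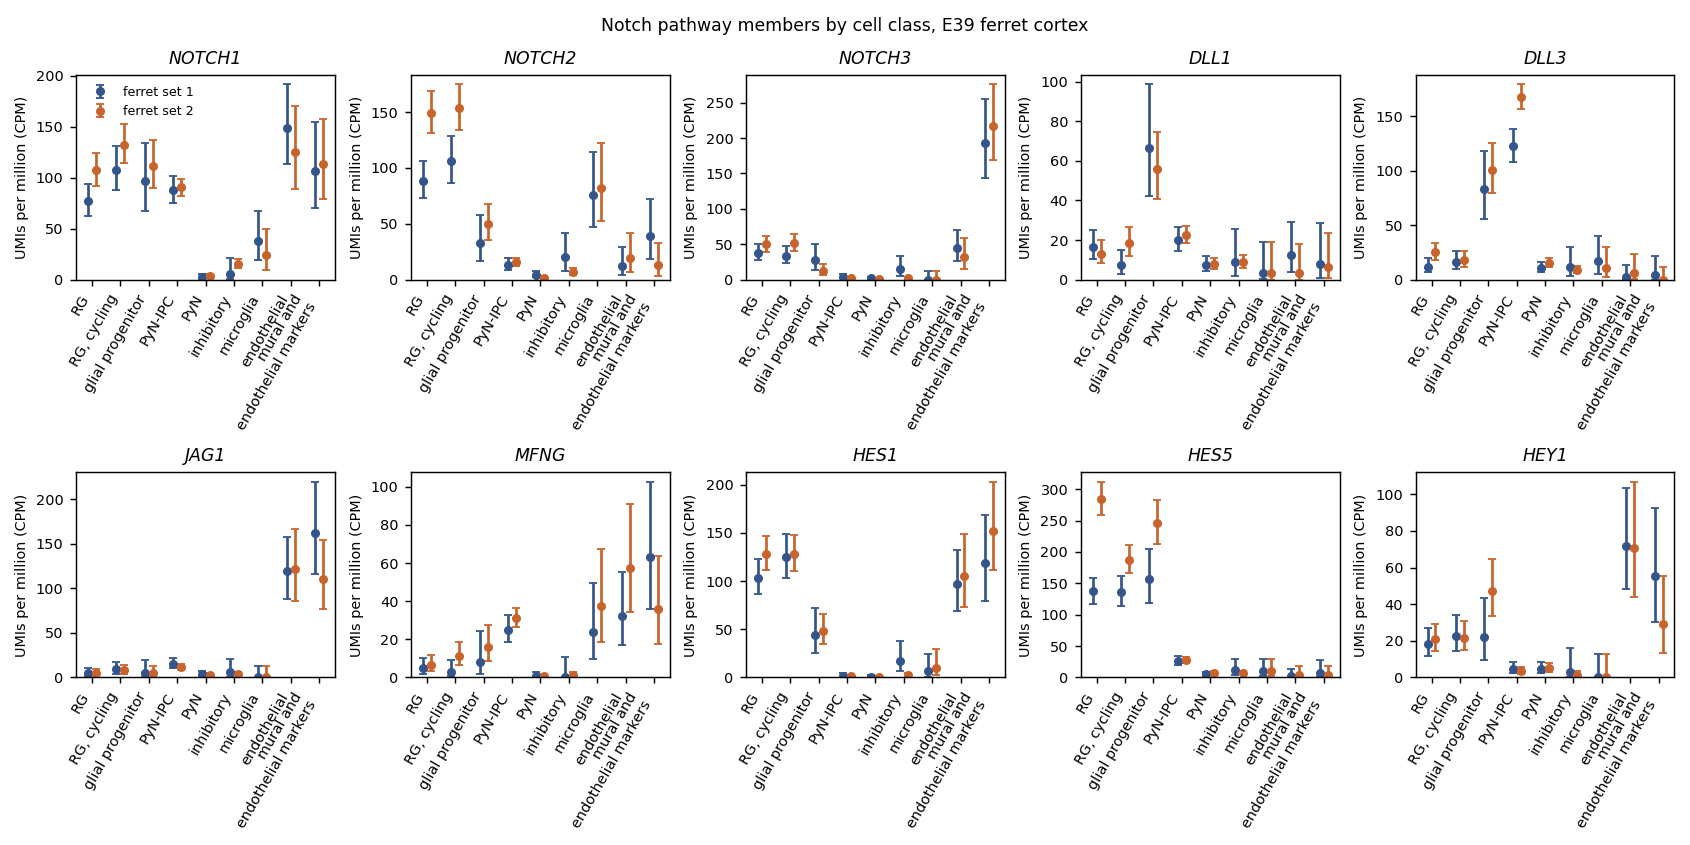
Level of each member (CPM, linear axis from 0) in 9 cell classes of E39 ferret cortex, for barcode set 1 (blue) and set 2 (orange), with exact Poisson 95% intervals. HES1, HES5 and NOTCH2 are high in RG-like cells, DLL3 in PyN-IPC-like cells, and NOTCH3 in the cells with mural and endothelial markers (193 and 217 CPM).

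The genotypes were compared next, to ask whether the pathway differed after Smo was deleted in RG cells. In RG-like cells the 3 receptors and both Hes genes stayed within 1.5-fold, while Hey1 was higher and Mfng lower in Smo-cKO. Of 9 members tested, 1 was higher and 1 lower, against 5.33% and 5.86% of all genes. The members' median log2 ratio was -0.11, and that of all genes -0.02. The median UMI count of RG-like cells was 6801.5 in Smo-cKO and 4173 in control, which the CPM scale divides out but shares of cells do not.

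Hey1 had 160 UMIs in control and 279 in Smo-cKO RG-like cells, a ratio of 1.56 (1.28 to 1.91). The share of RG-like cells with a Hey1 UMI was 16.6% in control and 34.8% in Smo-cKO, and 11.0% and 17.5% with each cell thinned to 2900 UMIs. In cycling RG-like cells the ratio was 1.25 (0.978 to 1.61), and with cycling cells added it was 1.44 (1.23 to 1.67), below the 1.5-fold limit; 0 of 9 members were then higher and 1 lower (5.39% and 6.34% of all genes). With a stricter score it was 1.39.

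Mfng had 41 UMIs in 31 control RG-like cells and 14 UMIs in 12 Smo-cKO RG-like cells, a ratio of 0.306 (0.154 to 0.573). These cells hold a low level of a gene that marks PyN-IPC-like cells, and 3.79% and 1.98% of them had a Mfng UMI, below the 18.4% and 10.9% of microglia-like cells, and the part of free RNA in this level was not tested. In PyN-IPC-like cells, where Mfng is abundant, the ratio was 0.981 (0.884 to 1.09).

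Notch2 was 0.751 (0.712 to 0.791) of control in RG-like and 0.695 (0.646 to 0.748) in cycling RG-like cells. Both intervals lie below 1 and both values inside the 1.5-fold limit. Notch3 was at 1.33 (1.06 to 1.68) in RG-like cells and Notch1 at 0.926 (0.837 to 1.02). Hes1 was at 0.904 (0.832 to 0.981) and Hes5 at 1.12 (1.03 to 1.21) in RG-like cells. The ligands Dll1, at 0.896 (0.494 to 1.63), and Jag1, at 1.03 (0.788 to 1.36), had intervals that include 1. In cycling RG-like cells, 0 of 7 members tested were higher and 1 was lower (Jag1, at 0.559, 0.361 to 0.847), against 3.91% and 7.52% of all genes.

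In PyN-IPC-like cells, 1 of 9 members tested was higher and 2 were lower in Smo-cKO, against 5.93% and 5.16% of all genes. Hes1 had 61 UMIs in 42 control cells and 8 UMIs in 8 Smo-cKO cells, a ratio of 0.223 (0.0923 to 0.468). The share of PyN-IPC-like cells with a Hes1 UMI was 3.59% and 1.38%, beside 6.90% and 12.3% of microglia-like cells, and 2.22% and 0.418% beside 4.21% and 7.39% with each cell thinned to 2900 UMIs. The Smo-cKO level thus rests on 8 UMIs, and the part of free RNA in these low counts was not tested. Hes5 was at 27.5 and 18.0 CPM, a ratio of 0.654 (0.475 to 0.891), in 10.9% and 7.08% of cells. PyN-IPC-like cells held a median of 4 RG markers in control and 5 in Smo-cKO. Hey1 had 25 UMIs in each library, and its ratio of 1.70 (0.938 to 3.09) includes 1.

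Dll1 was the ligand with the largest genotype ratio in PyN-IPC-like cells, at 1.495 (1.15 to 1.94), just under the limit, from 131 UMIs in control and 115 in Smo-cKO. A Dll1 UMI was present in 9.91% and 15.4% of cells, and in 6.67% and 8.40% at 2900 UMIs per cell. Without cells that held at least 3 markers of PyN, inhibitory, Cajal-Retzius, microglia, vessel or erythroid cells, the Dll1 ratio was 2.02. PyN-IPC-like cells held a median of 3 PyN markers in both libraries, so this left out much of the class. No interval was computed for that ratio. Dll3, at 1.12 (0.933 to 1.35), and the receptors Notch1 and Notch2, both at 0.934, had intervals that include 1.

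In PyN-like cells, 0 of 7 members tested were higher and 2 were lower in Smo-cKO, against 3.57% and 2.2% of all genes (5.77% either way). Notch1 was at 18.3 and 10.9 CPM, a ratio of 0.595 (0.436 to 0.810), and Notch2 at 29.3 and 16.7 CPM, a ratio of 0.570 (0.445 to 0.727). Both receptors were sparse there, with a Notch1 UMI in 5.79% and 4.22% of cells and a Notch2 UMI in 6.75% and 6.16%, and the part of free RNA in these counts was not tested. Microglia-like cells, which were deeper, had a Notch1 UMI in 11.5% and 23.2% of cells. With each cell thinned to 2900 UMIs the Notch1 shares were 4.57% and 2.68% of PyN-like cells, beside 3.38% and 9.04% of microglia-like cells. Mfng, with 381 and 306 UMIs, was at 0.694 (0.595 to 0.809), inside the limit.

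In inhibitory-like cells, 5 of 6 members tested were lower and 0 higher in Smo-cKO, against 7.63% and 9.49% of all genes. Notch1, Notch2, Mfng, Hes1 and Hes5 had ratios from 0.533 to 0.626, and Dll3 was at 0.903 (0.511 to 1.59). By the study, hGFAP-Cre begins later in RG cells of the lateral ganglionic eminence than in those of the cortex. Smo had 8 UMIs in control and 1 in Smo-cKO inhibitory-like cells, and how many of them had lost Smo was not tested. The inhibitory-like cells held a median of 3 of 12 RG markers in control and 1 in Smo-cKO, and a median of 4360 against 3137.5 UMIs, and the part of these in the result was not tested. With cells that held at least 3 markers of PyN, Cajal-Retzius, microglia, vessel or erythroid cells left out, 2 members were past the limit. Cells with RG markers were kept there, and no share of all genes was computed.

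In glial progenitor-like cells, Notch1, Notch2, Jag1, Mfng and Hes5 were lower and Dll3 higher in Smo-cKO, that is 5 and 1 of 8 members tested, against 14% and 7.73% of all genes. Jag1 had 71 UMIs in 51 of 208 control cells and 4 UMIs in 4 of 41 Smo-cKO cells, a ratio of 0.179 (0.0475 to 0.480). Dll3 had 49 UMIs in 41 control and 44 UMIs in 16 Smo-cKO cells, a ratio of 2.86 (1.86 to 4.38). Dll1, at 0.707 (0.344 to 1.34), and Hes1, at 0.771 (0.548 to 1.06), had intervals that include 1. The median number of cycling markers was 5 in control and 1 in Smo-cKO, so the cells compared differed in makeup, and the part of this in the result was not tested.

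In microglia-like cells, which hGFAP-Cre does not reach by lineage, 2 of 3 members tested were higher and 0 lower in Smo-cKO, against 13% and 11.9% of all genes. Hes1 had 10 UMIs in 6 of 87 control cells and 53 UMIs in 17 of 138 Smo-cKO cells, with up to 11 UMIs in 1 cell, a ratio of 3.15 (1.59 to 6.96). Notch1 was at 1.79 (0.933 to 3.65), an interval that includes 1.

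**Figure D4:**
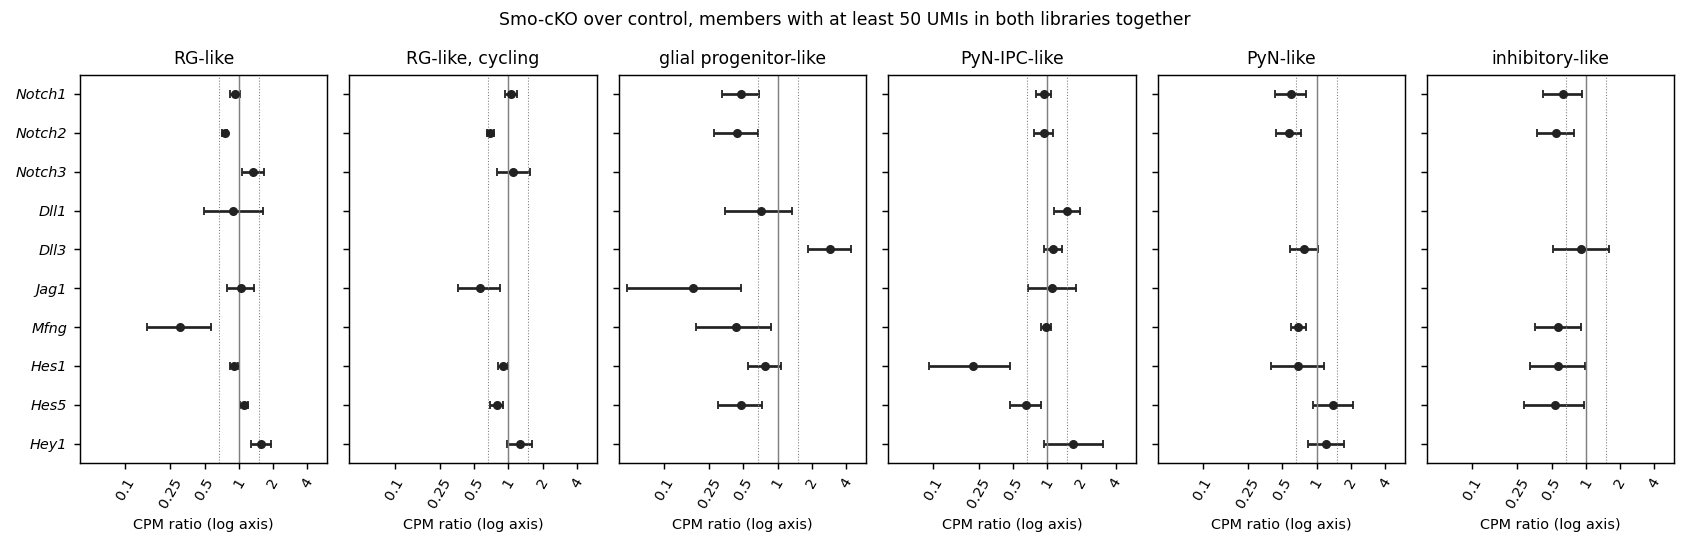
Ratio of CPM in Smo-cKO over control (log axis) for members with at least 50 UMIs in 6 cell classes, with exact conditional binomial 95% intervals; the solid line is 1 and the dotted lines the 1.5-fold limits. In RG-like cells Hey1 (1.56) and Mfng (0.306) pass a limit and the receptors and Hes genes do not.

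Ligand and target were then looked at in the same cells. Among RG-like cells, cycling cells included, those with a Dll1 UMI held a Hes1 UMI less often than those without in all 4 libraries. In control the shares were 51.5% of 33 cells and 64.5% of 1286 cells, and in Smo-cKO 40.7% of 27 (22.4 to 61.2) and 67.5% of 805 (64.1 to 70.7). In the ferret they were 16.7% of 24 and 26.0% of 678 cells in set 1, and 22.5% of 40 and 36.8% of 676 cells in set 2. Only in Smo-cKO did the exact 95% intervals of the 2 shares not overlap. Cells with a Dll1 UMI were deeper, with medians of 5561 against 4593.5 UMIs in control and 8719 against 7313 in Smo-cKO. Of the cells with a Dll1 UMI, 9 were cycling and 24 not in control, and 5 and 22 in Smo-cKO. In ferret these numbers were 7 and 17 in set 1, and 19 and 21 in set 2. A Hes1 UMI was seen in 371 of 500 cycling and 475 of 819 other RG-like control cells. The part of cycling in the Hes1 shares was not tested.

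The Hes1 level gave the same order, with 220 against 349 CPM in control, 94.3 against 310 CPM in Smo-cKO, 61.1 against 114 CPM in ferret set 1 and 65.8 against 133 CPM in set 2. For cells between 3000 and 6000 UMIs in control, 50% of 16 and 62.1% of 816 cells had a Hes1 UMI, but the Hes1 level was 383 against 358 CPM, the reverse order. For Hes5 the shares with and without a Dll1 UMI were 39.4% and 52.3% in control, 51.9% and 62.6% in Smo-cKO, 20.8% and 29.9% in set 1, and 47.5% in both groups of set 2. Notch1 had no common order: 72.7% and 58.7% in control, 77.8% and 68.7% in Smo-cKO, 29.2% and 21.7% in set 1, and 37.5% and 38.0% in set 2. The intervals of the shares with and without Dll1 overlapped for Hes5 and Notch1 in each library. For Notch2 the shares were 81.8% and 88.9% in control, 85.2% and 86.1% in Smo-cKO and 45% and 42.3% in set 2, and in ferret set 1 they were 8.33% (1.03 to 27.0) and 24.2% (21.01 to 27.6).

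**Figure D5:**
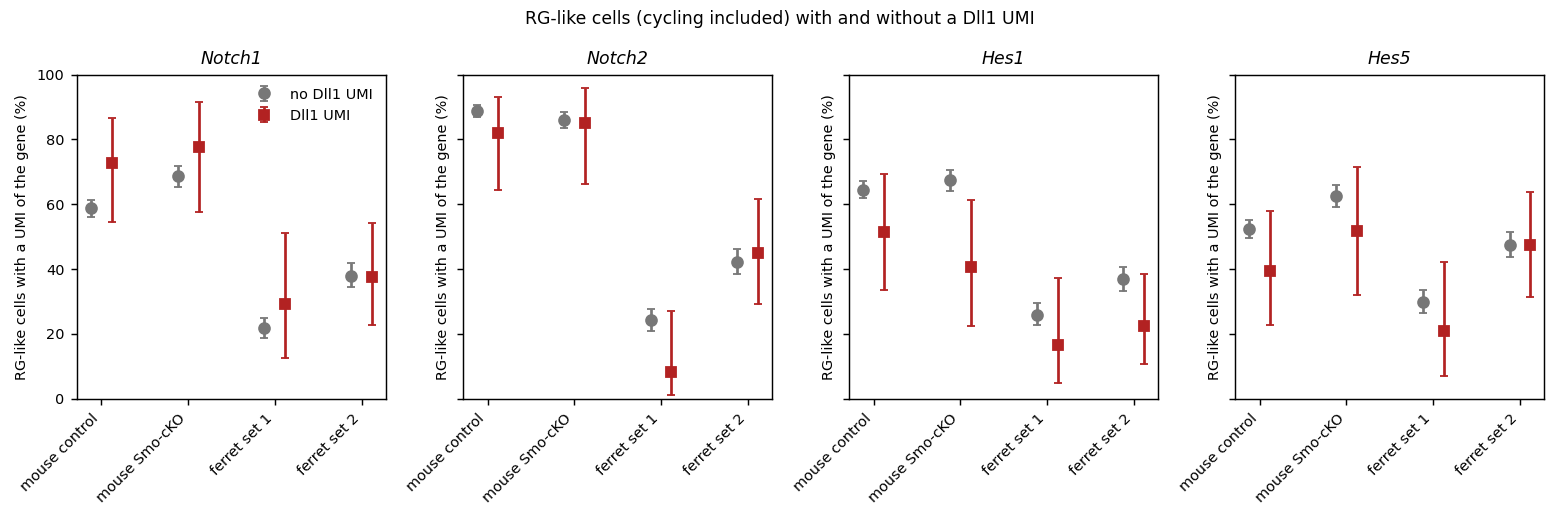
Share of RG-like cells (cycling included) with a UMI of Notch1, Notch2, Hes1 or Hes5, in cells with (red squares) and without (grey circles) a Dll1 UMI, in 4 libraries, with exact Clopper-Pearson 95% intervals. For Hes1 the red squares lie below the grey circles in all 4 libraries, and the intervals are apart in Smo-cKO (40.7% against 67.5%).

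Of 50 other genes of the pathway, 38 passed the UMI minimum in RG-like cells, and 4 were higher in Smo-cKO (5.33% of all genes). Dner, a Notch-binding transmembrane protein, had 18.2 CPM in control and 47.2 CPM in Smo-cKO, 2.60 times as much (1.96 to 3.47). The other 3 were the fringe enzyme Rfng at 1.79 (1.29 to 2.52), the endothelial receptor Notch4 at 1.53 (0.984 to 2.41) and the fucosyltransferase Pofut1 at 1.51 (0.938 to 2.49), and the last 2 intervals include 1. Among those lower (5.86% of all genes) were Dtx1, a cytoplasmic regulator of Notch, at 0.431 (0.259 to 0.701), and Fbxw7, which targets the Notch intracellular domain for degradation, at 0.545 (0.423 to 0.699). All 10 genes of the cleavage machinery stayed within 1.5-fold, as did 8 of 10 tested of the endocytosis, ubiquitination and inhibitor group. Of all genes, only 11.2% were past 1.5-fold either way, so most genes stayed within it.

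Across the 7 mouse classes in 2 libraries (14 points, log2 of CPM plus 10), the genes whose level was most like that of Hes5 were Abcd3, Prkcdbp and Tpbg, with Pearson's r of 0.988 for each. For Dll1 they were Glrx3 (0.922), Naca (0.909) and Chd7 (0.903), and for Mfng Rps7 (0.916), Abracl (0.915) and Gtf3c6 (0.912). They were the highest of 8993 genes, and the points share libraries and cells, so that r is a description of these classes.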

How the data were processed

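The authors processed 10x Chromium reads with Cell Ranger and deposited raw UMI counts per gene and cell. The submitters' processing notes also name StringTie, Seurat 3 and mm10, and the ferret build is not given in the sources used here. Cells with 750 to 5000 genes and under 10% mitochondrial UMIs were kept. A cell was scored per marker list as the number of markers with a UMI, minus that expected from its total, over its SD. Rare classes needed at least 3 markers and a score of 2.5, and RG, PyN-IPC and PyN at least 3 markers, the highest score, at least 1, and a lead of 1. RG-like cells with 3 cycling markers were split off. Classes with at least 40 cells in each library of the species were compared. The score limits were chosen with the data in view, so a difference from the study may come from rebuilt names. No doublet caller was run. An alternative left out cells with 3 or more markers of a class not their own among PyN, inhibitory, Cajal-Retzius, microglia, endothelial, mural and erythroid. Markers of RG, PyN-IPC, glial progenitor and ependymal or choroid cells were not used for it.

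Shares have exact Clopper-Pearson, CPM exact Poisson and ratios exact conditional binomial 95% intervals (scipy 1.17.1 and numpy 2.4.6 under python 3.11.15, tables read with pandas 2.3.3). The ratios, their intervals and the thinned shares were tested on simulated data. A count of 0 was given a limit of 3 counts. Named are all members, other pathway genes past 1.5-fold between genotypes in RG-like cells, and for Hes5, Dll1 and Mfng the 3 genes most alike (at least 20 CPM in some class, no marker). A further pathway gene that the rule names is not reported here. The members and lists were chosen with earlier results of these data known. Alternatives changed the cell filter, fold, scaling, UMI minimum, marker number, score, summing and depth range.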

Additional observations from a re-analysis of the deposited data

Results flagged for a closer look

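Notch1 and Hes1 gave genotype ratios past 1.5-fold in opposite directions in different cell classes, and the difference between classes was not tested. The Smo-cKO over control ratio of Notch1 was 1.79 in microglia-like cells, against 0.479 in glial progenitor-like, 0.595 in PyN-like and 0.626 in inhibitory-like cells. That of Hes1 was 3.15 in microglia-like cells, against 0.223 in PyN-IPC-like and 0.568 in inhibitory-like cells. Each rests on 1 library per genotype. The interval of Notch1 in microglia-like cells, 0.933 to 3.65, includes 1. The Hes1 ratio in PyN-IPC-like cells rests on 61 and 8 UMIs, and that in microglia-like cells on 10 and 53.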

How the results depend on the processing

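No member past the limit changed direction in any alternative. Ratios inside the limit or under 50 UMIs could change side, as Dll1 in cycling RG-like cells did, from 0.591 to 3.68 at a score of 1.5. Counts of members past the limit were 2 in RG-like, 1 in cycling RG-like, 6 in glial progenitor-like, 3 in PyN-IPC-like, 2 in PyN-like, 5 in inhibitory-like and 2 in microglia-like cells. With a fold of 2 they became 1 in RG-like, 0 in cycling RG-like, 1 in PyN-IPC-like, 0 in PyN-like, 0 in inhibitory-like and 1 in microglia-like cells. With at least 200 UMIs, which tests fewer genes, they became 1, 0, 2, 1, 1, 0 and 0 in the order of the first list, and with at least 10 UMIs the count in cycling RG-like cells was 4. Leaving out cells with markers of another class gave 1 in RG-like, 1 in PyN-IPC-like, 2 in inhibitory-like and 1 in microglia-like cells, and 1 more marker gave 3 in inhibitory-like cells. Adding cycling cells gave 1 in RG-like cells, and the mean over cells gave 0 in cycling RG-like cells. Score limits chosen after seeing the data gave, at 1.5, 1 in RG-like and 0 in cycling RG-like cells and, at 0, 2 in cycling RG-like and 1 in PyN-like cells. The share of all genes past the limit was not computed for these alternatives other than adding cycling cells, so their counts have no background beside them. The cause of these changes was not tested.

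Within 1 range of depth, the difference in the share of cells with a UMI, with minus without Dll1, moved from 14.02 to -4.90 percentage points for Notch1 in control and from -15.9 to -26.1 for Notch2 in ferret set 1. Too few Smo-cKO cells with Dll1 lay in that range for a value. Among the 6 neural classes, with vessel and microglia-like cells left out and cycling cells counted as RG-like, the number of members highest in RG-like cells was 6 in control and 7 in Smo-cKO in every alternative, and 5 in ferret, or 4 with at least 2 UMIs per cell, 1 more marker or a score of 0. Over all alternatives, 90 of these summary values stayed within 1.5 times the count or inside the interval and 27 moved. No paired analysis was possible because the mouse labels carry no replicate numbers and the ferret columns could not be tied to the numbered samples. Depth limits Dll1, Dll3 and Mfng in RG-like cells, where 6 to 41 mouse UMIs set each level.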
